A study of Mus musculus with 12 samples.

Results

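Receptors and bridging ligands with which astrocytes take up dying cells, synapses and debris were described across the 6 libraries labelled as control and the 6 labelled as ablated for astroglial TNFR2 in a sequencing study of sorted hippocampal astrocytes. The 10 genes were chosen by gene symbol from 56941 genes in the deposited table: the receptor tyrosine kinases Mertk, Axl and Tyro3, the receptors Megf10 and Lrp1, the integrin subunits Itgav and Itgb5, and the secreted ligands Gas6, Pros1 and Mfge8. Tissue came from adult male mice that were naive, that is, not treated or injured, and astrocytes were isolated by fluorescence sorting on ACSA-2, a surface antigen of astrocytes. Mice of both groups were floxed at Tnfrsf1b, the gene of TNFR2, a receptor for tumour necrosis factor (Tnfrsf1bfl/fl). The group called cKO also carried a Cre recombinase fused to an oestrogen receptor domain and driven by the Gfap promoter (GfapcreERT2:Tnfrsf1bfl/fl), and the group called Ctrl had the floxed gene without it. A Cre of this kind acts after tamoxifen and in cells with an active Gfap promoter, which include astrocytes and neural stem cells. Tamoxifen dosing, the strain and the age beyond adult were not given in the sources used here.

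Each library name holds an A number and an S number, neither of which the labels define. The S1 and S2 libraries of an A number correlated at r = 0.980 to 0.984 across genes, against 0.788 to 0.896 between libraries of different A numbers, so both were averaged and counted as 1 unit. That left 3 Ctrl units (A1, A2 and A8) and 3 cKO units (A4, A9 and A10). Whether each A number was 1 mouse or a pool was not given in the sources used here, and p-values measure only the spread between these units. Values are FPKM, fragments assigned to a gene, scaled by its length and by the library total. The depth recovered from the FPKM steps was 17311870 to 22025825 reads in the S1 and 28096486 to 35323323 reads in the S2 libraries.

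Cells that die by apoptosis, and some synapses, expose phosphatidylserine on their outer membrane. Bridging ligands bind this lipid and a receptor on the engulfing cell: Gas6 binds Mertk, Axl and Tyro3, together called the TAM receptors, protein S (Pros1) binds Mertk and Tyro3, and Mfge8 binds the integrin formed by the alpha-v (Itgav) and beta-5 (Itgb5) chains. Megf10 and the lipoprotein receptor Lrp1 act beside them, and astrocytes are known to clear synapses in development and adulthood through Megf10 and Mertk.

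A kinase signature of the TAM receptors and the integrin-binding motif of Mfge8 are shown first. The TAM receptors each have a related kinase domain and differ in level. TAM kinases carry a signature of 7 codons in the kinase domain, given here in capitals with 15 bases on each side, read from the coding strand of GENCODE M21 transcripts in GRCm38. Tyro3 lies at chr2:119812891-119812941 on the plus strand in exon 17, Mertk at chr2:128793034-128793084 on the plus strand in exon 17, and Axl at chr7:25761426-25761476 on the minus strand in exon 18.
Tyro3: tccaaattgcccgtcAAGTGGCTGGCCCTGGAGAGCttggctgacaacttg
Mertk: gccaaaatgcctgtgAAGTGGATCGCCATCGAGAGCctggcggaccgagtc
Axl: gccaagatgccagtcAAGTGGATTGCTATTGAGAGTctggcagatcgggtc
Of the 51 bases, Mertk and Axl shared 41 (80.4%), Tyro3 and Mertk 36 (70.6%) and Tyro3 and Axl 33 (64.7%). Over this stretch Tyro3 was thus the most distant of the 3, and Mertk and Axl the closest pair.

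Mfge8 reaches its integrin through an arginine-glycine-aspartate motif, whose 3 codons are in capitals with 21 bases on each side (GRCm38, chr7:79145287-79145337, minus strand, exon 3).
Mfge8: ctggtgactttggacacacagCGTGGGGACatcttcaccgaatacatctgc
The motif occurred once in the coding sequence searched.

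The 250 bases before the RefSeq start of the 3 TAM genes (GRCm38.p6) are shown because the levels of these receptors differed in these cells. Tyro3 covers chr2:119799264-119799513 on the plus strand and precedes the RefSeq start. The GENCODE M21 gene starts further upstream, at base 119797733, so the window lies inside the gene as annotated there. The other windows lie before theirs, Mertk at chr2:128698665-128698914 on the plus strand and Axl at chr7:25788734-25788983 on the minus strand. Capitals mark GC boxes, the letters GGGCGG read on either strand.
Tyro3: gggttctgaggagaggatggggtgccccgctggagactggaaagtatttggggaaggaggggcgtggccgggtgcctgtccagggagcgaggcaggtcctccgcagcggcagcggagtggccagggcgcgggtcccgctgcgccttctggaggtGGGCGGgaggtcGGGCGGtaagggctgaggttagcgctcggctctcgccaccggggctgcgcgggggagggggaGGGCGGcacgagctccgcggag
Mertk: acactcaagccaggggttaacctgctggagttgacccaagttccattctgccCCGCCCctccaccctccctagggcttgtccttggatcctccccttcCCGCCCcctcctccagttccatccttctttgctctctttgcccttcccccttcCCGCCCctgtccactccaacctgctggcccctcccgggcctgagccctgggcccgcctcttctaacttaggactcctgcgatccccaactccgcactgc
Axl: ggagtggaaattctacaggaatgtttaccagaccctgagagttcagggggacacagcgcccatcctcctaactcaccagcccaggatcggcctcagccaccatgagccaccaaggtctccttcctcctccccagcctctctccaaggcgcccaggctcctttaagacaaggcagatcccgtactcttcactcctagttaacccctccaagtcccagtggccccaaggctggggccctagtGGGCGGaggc
The Tyro3 window was 73.2% G or C and held 3 GC boxes, the Mertk window 63.6% with 3, and the Axl window 60% with 1. A GC box was present in 8 of the 9 windows found for the 10 genes, against 32.7% of the 32851 RefSeq windows of this length. The letters CCAAT, searched on both strands, were in 33.9% of all windows and in 0 of these 9. The letters TATAAA were in 12.4% and in 0 of these 9. A match describes letters only, and the absence of one says nothing of a factor. Itgav had no GC box, and Megf10 had no window in the table used.

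The labels were checked before the comparison. Tnfrsf1b was at 0.0275 FPKM in A1 and 0.141 in A4, a unit labelled cKO, and listed at 0 in A2, A8, A9 and A10. A gene this low in Ctrl does not check the labels, and its highest value was in a cKO unit, so Ctrl and cKO below mean the libraries so labelled. Gfap, the intermediate filament of astrocytes, averaged 78.5 ± 29.0 FPKM (SD, n = 3) in Ctrl and 117 ± 33.9 in cKO, with ranges that overlapped. All 12 astrocyte markers were measured, with a summed level of 3420 to 4187 FPKM in Ctrl and 4065 to 4653 in cKO. Of these, 11 were higher in cKO. Markers of oligodendrocytes moved with the groups, at a summed 1049 to 2273 FPKM in Ctrl and 302 to 720 in cKO, and all 10 were lower in cKO. The sum of 5 markers of oligodendrocyte precursors did not overlap either, at 127 to 164 FPKM in Ctrl and 76.6 to 106 in cKO. Of these markers, Olig1 and Sox10 had unit ranges that did not overlap, and the ranges of Pdgfra, Cspg4 and Olig2 overlapped. In these bulk samples, fewer cells of a type and less RNA per cell cannot be told apart.

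All 10 genes were measured in every library, at 2.98 FPKM or more. In Ctrl the order of mean level ran Mfge8, Mertk, Lrp1, Itgav, Megf10, Gas6, Axl, Itgb5, Pros1 and Tyro3. Neighbours whose unit ranges did not overlap were Mfge8 over Mertk, Lrp1 over Itgav, and Itgb5 over Pros1, and the ranges of the other neighbouring pairs overlapped. Mfge8 stood at rank 90 of 17540 genes tested by Ctrl level and Tyro3 at rank 4018, so the set covered highly abundant and mid-level transcripts. The cKO order differed only in that Axl came before Gas6, whose ranges overlapped.

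**Figure D1:**
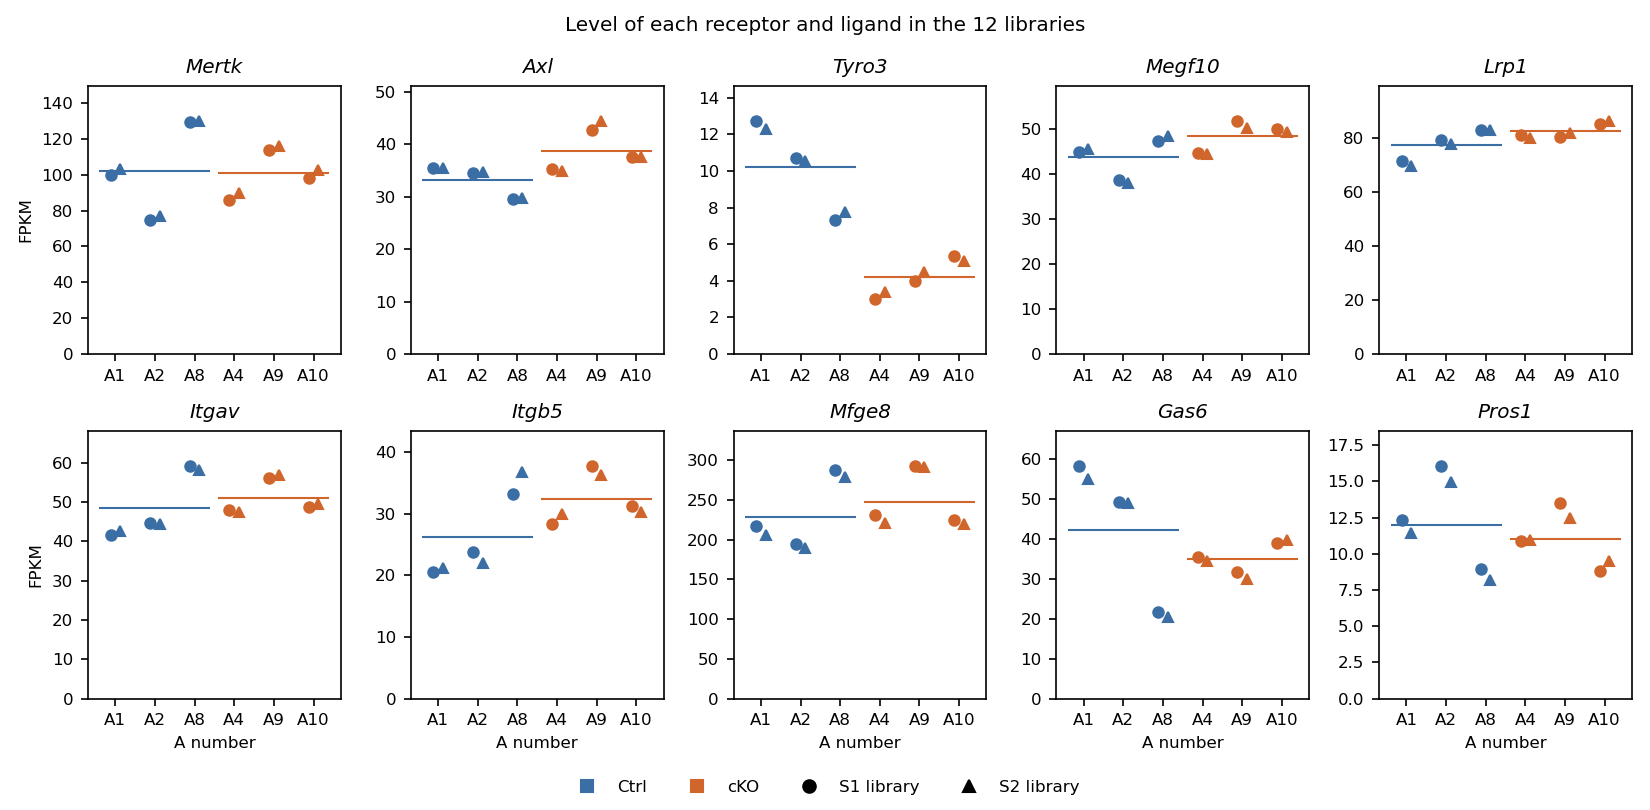
Level of each of the 10 genes in the 12 libraries (FPKM, y axis, linear and starting at 0) by A number (x axis). Circles are S1 and triangles S2 libraries, colours give the genotype label, and horizontal lines are group means of the 3 units. Tyro3 is the one gene in which all cKO points lie below all Ctrl points.

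Across the 17540 genes with a mean of at least 1 FPKM, 0 passed a Benjamini-Hochberg adjusted p of 0.05 in limma (0.00%), with 1349 genes at an unadjusted p under 0.05 (7.69%). Of all genes, 4.71% had such a p with a lower and 2.98% with a higher value in cKO. None of the 10 genes passed, and 1 of them, Tyro3, had an unadjusted p under 0.05 and was lower. Tyro3 was also the 1 gene of 10 whose units did not overlap between genotypes. Of all genes, 7.22% did not overlap with cKO lower and 5.76% with cKO higher. The log2 fold change on log2(FPKM + 1) was above 0 in 7 of the 10 genes and in 49.2% of all genes. Its median was 0.09 in the 10, -0.01 over all genes tested and 0.21 in the 12 astrocyte markers, of which 11 were above 0. The interval of the difference crossed 0 in 9 genes.

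**Figure D2:**
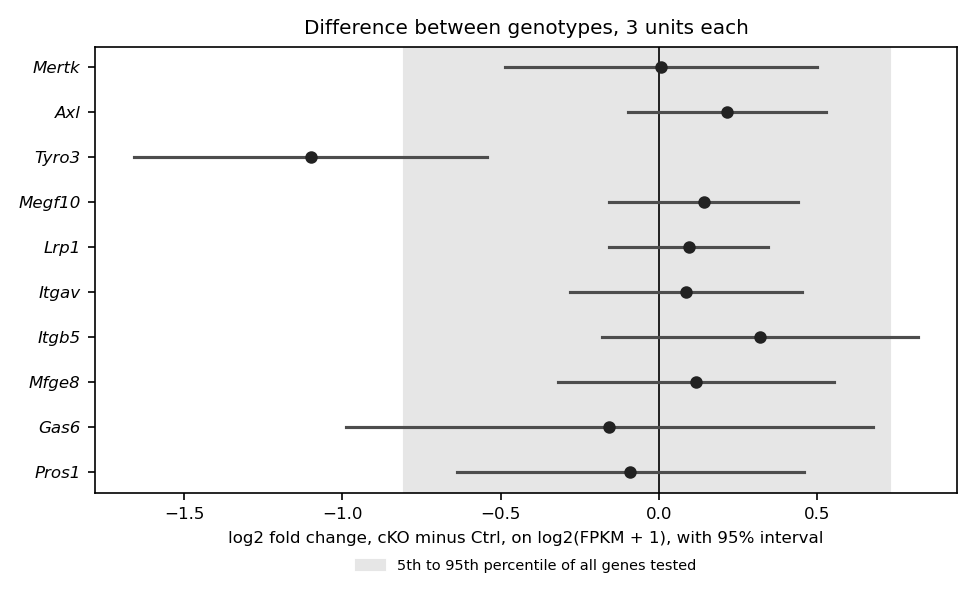
Difference cKO minus Ctrl on log2(FPKM + 1) for each gene (x axis, points), with its unadjusted 95% interval from limma (lines) and the 5th to 95th percentile of all 17540 genes tested (grey, -0.80 to 0.73). The Tyro3 point lies left of the grey band at -1.10 and the other 9 lie inside it.

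Tyro3, the least abundant TAM receptor, was lower in the cKO units than in the Ctrl units, but the difference did not pass the test over all genes. Its S1 and S2 values were 12.7 and 12.3 FPKM in A1, 10.7 and 10.5 in A2, and 7.33 and 7.78 in A8. In the cKO libraries they were 2.98 and 3.41 in A4, 4.01 and 4.46 in A9, and 5.33 and 5.11 in A10. The lowest Ctrl library thus lay above the highest cKO library. Means were 10.2 ± 2.50 FPKM (SD, n = 3) in Ctrl and 4.22 ± 1.01 in cKO, a log2 fold change of -1.10 (SE 0.24, 95% interval -1.66 to -0.54, limma adjusted p = 0.333). The exact two-sided permutation p was 0.1, the smallest that 3 against 3 allows. By unadjusted p Tyro3 stood at rank 117 of the genes tested, and a cKO value lower by 2-fold or more was found in 3.23% of them. Between 407 and 2375 reads supported each library's value. Leaving out 1 unit at a time, the log2 fold change lay between -1.28 and -0.95 and the limma adjusted p between 0.131 and 0.845. When all 12 libraries entered with a random effect for A number, the limma adjusted p of Tyro3 was 0.0373, and 112 genes passed in all. With the S number as a replicate block as well it was 0.0558, and 80 genes passed. Both models enter S1 and S2 as separate libraries, and the fit on units passed 0 genes. The table's coordinates are chr2:119628214-119648585, plus strand (ENSMUSG00000027298).

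Beside Tyro3, the oligodendrocyte markers also separated the genotypes. Their summed level was 2088, 2273 and 1049 FPKM in A1, A2 and A8 and 302, 431 and 720 in A4, A9 and A10. Among the cKO units both were lowest in A4 and highest in A10, and among the Ctrl units both were lowest in A8. The order of A1 and A2 differed: Tyro3 was higher in A1 and the marker sum in A2. Tyro3 is also known to be expressed in oligodendrocytes and neurons. None of the 10 markers was listed at 0 in every library. Neuron markers summed to 6.05 to 10.02 FPKM in Ctrl and 3.28 to 6.69 in cKO. The part of these cells in the Tyro3 difference was not tested.

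**Figure D3:**
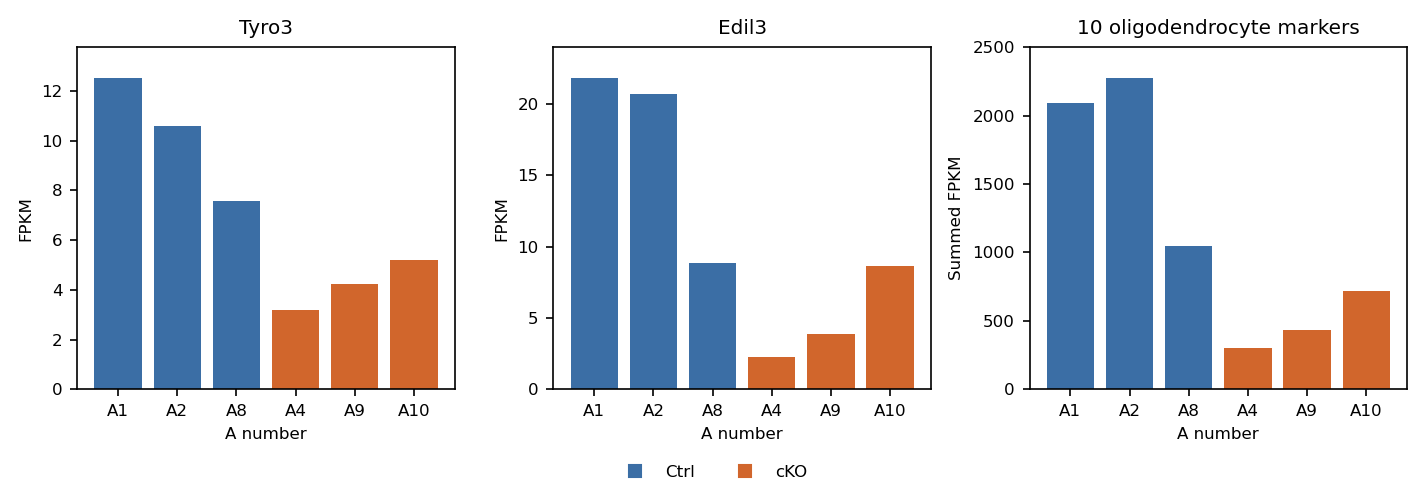
Tyro3, the integrin ligand Edil3 and the sum of 10 oligodendrocyte markers (FPKM, linear axes from 0) in each of the 6 units. Bars are unit means of the S1 and S2 libraries. In all 3 panels A4 is the lowest bar and each cKO bar is below each Ctrl bar.

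Mertk, the TAM receptor known for engulfment of cell debris and synapses, had the highest mean of the receptors in both groups. The group means of Mertk were nearly equal, and in A2 Lrp1 lay above it at 78.6 FPKM. Mertk was 101 FPKM in A1, 75.9 in A2 and 130 in A8, against 87.8 in A4, 115 in A9 and 100 in A10. The ranges overlapped, and the means were 102 ± 26.9 and 101 ± 13.5 FPKM. The log2 fold change was 0.01 (95% interval -0.49 to 0.50, limma adjusted p = 0.997), and its sign changed with the units left out. Its coordinates are chr2:128540876-128644814, plus strand (ENSMUSG00000014361).

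Axl, whose ligand is Gas6 and which marks reactive and inflammatory states in many tissues, was 35.4, 34.5 and 29.6 FPKM in A1, A2 and A8 and 35.1, 43.6 and 37.6 in A4, A9 and A10. Means were 33.2 ± 3.11 and 38.8 ± 4.38, with a log2 fold change of 0.22 (95% interval -0.10 to 0.53, limma adjusted p = 0.799). The ranges overlapped because A4 lay among the Ctrl units. Its coordinates are chr7:25456698-25488130, minus strand (ENSMUSG00000002602).

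As shares of the summed TAM receptors, Mertk took 62.7% to 77.7% in Ctrl units and 69.7% to 70.6% in cKO units. The Axl share was 17.8% to 28.5% and 26.3% to 27.8%. The Tyro3 share was 4.53% to 8.77% in Ctrl and 2.53% to 3.64% in cKO, so these ranges did not overlap, as for its level. The summed TAM level, 121 to 167 FPKM and 126 to 163 FPKM, did overlap. These shares describe the units and were not tested.

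**Figure D4:**
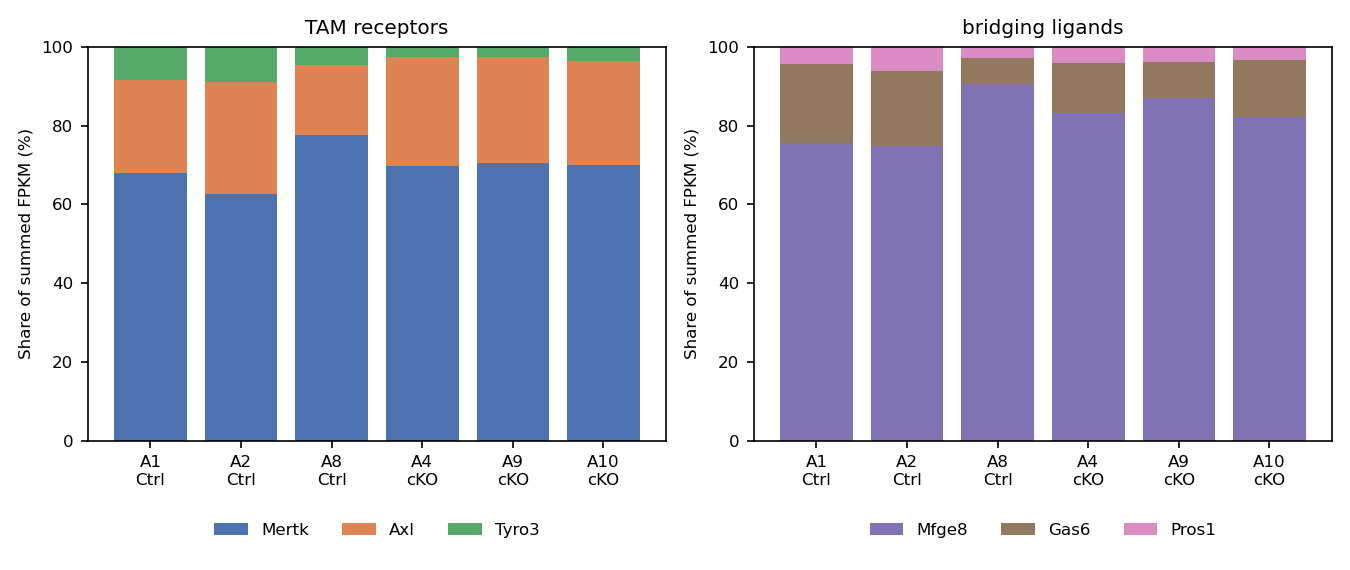
Share of each gene in the summed FPKM of its family (y axis, percent) in the 6 units (x axis). The Tyro3 share is smaller in each cKO unit than in each Ctrl unit, and A8 has the largest Mfge8 share at 90.5%.

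Megf10 and Lrp1 were close between genotypes. Megf10, an engulfment receptor that binds C1q, was 45.2, 38.3 and 47.8 FPKM in A1, A2 and A8 and 44.4, 50.9 and 49.6 in A4, A9 and A10. Means were 43.8 ± 4.88 and 48.3 ± 3.43 (log2 fold change 0.14, 95% interval -0.16 to 0.44, limma adjusted p = 0.877). Lrp1, an endocytic receptor for many ligands, was 70.7, 78.6 and 83.0 FPKM in A1, A2 and A8 and 80.7, 81.2 and 85.9 in A4, A9 and A10. Its difference of 0.09 had the narrowest interval of the 10 genes, -0.16 to 0.34 (limma adjusted p = 0.911). The ranges of both genes overlapped between genotypes. Lrp1 lies at chr10:127374030-127457017, minus strand (ENSMUSG00000040249), and Megf10 at chr18:57266162-57430539, plus strand (ENSMUSG00000024593).

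The integrin subunits Itgav and Itgb5 had higher cKO means that did not pass the test. Itgb5 was 20.8, 22.9 and 35.0 FPKM in A1, A2 and A8 and 29.2, 37.1 and 30.8 in A4, A9 and A10. A8 lay among the cKO units, and A1 and A2 below all of them. The means were 26.2 ± 7.65 and 32.3 ± 4.17 (log2 fold change 0.32, 95% interval -0.18 to 0.82, limma adjusted p = 0.826). Leaving out 1 unit at a time, the log2 fold change ran from 0.18 without A1 (limma adjusted p = 0.908) to 0.54 without A8 (limma adjusted p = 0.209). Itgav, with 42.1, 44.5 and 58.7 FPKM in Ctrl and 47.7, 56.5 and 49.1 in cKO, differed by 0.09 (95% interval -0.28 to 0.45, limma adjusted p = 0.956). The ratio of Itgav to Itgb5 was 2.02, 1.94 and 1.68 in A1, A2 and A8 and 1.64, 1.52 and 1.60 in A4, A9 and A10, and these values did not overlap. The ratio was chosen for its members, was not tested, and rests on a gap between 1.68 and 1.64. It was one of several ratios computed. Those of Mertk to Axl, Mfge8 to Gas6, Gas6 to Pros1 and Mertk to Gas6 overlapped, and that of Mertk to Tyro3 did not. Itgav shares 634 bases, 5.90% of its length, with the noncoding Gm13684 on the other strand, and strand use in counting was not given, so those reads cannot be told apart. Itgav lies at chr2:83554741-83637260 (ENSMUSG00000027087) and Itgb5 at chr16:33650035-33769708 (ENSMUSG00000022817), both plus strand.

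Gas6, the ligand of all TAM receptors, had its largest spread in Ctrl. It was 56.6, 49.0 and 21.01 FPKM in A1, A2 and A8 and 34.9, 30.7 and 39.3 in A4, A9 and A10. A8 held the lowest value of the 6 units, and A1 and A2 the highest. The log2 fold change was -0.16 (SE 0.35, 95% interval -0.99 to 0.68, limma adjusted p = 0.967). Without A8 it was -0.58 (limma adjusted p = 0.187), and without A1 it was 0.11, so the direction rests on single units. Endothelial markers were likewise uneven: their sum was 51.3, 30.9 and 4.35 FPKM in A1, A2 and A8 and 35.0, 5.07 and 4.48 in A4, A9 and A10. Ependymal markers summed to 229, 202 and 59.7 FPKM in A1, A2 and A8 and to 118, 50.8 and 149 in A4, A9 and A10. In both Gas6 and the ependymal sum, A1, A2, A10 and A4 were the highest units in that order. The order of A8 and A9 differed, with Gas6 lowest in A8 and the ependymal sum lowest in A9. The part of endothelial and ependymal cells in Gas6 was not tested. Gas6 shares 34 bases, 1.33% of its length, with Tmem255b on the other strand. It lies at chr8:13515374-13544490, minus strand (ENSMUSG00000031451).

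Mfge8, a secreted bridge from phosphatidylserine to the integrin, was the most abundant of the 10. It was 211, 192 and 283 FPKM in A1, A2 and A8 and 226, 293 and 222 in A4, A9 and A10. The means of 229 ± 47.9 and 247 ± 39.5 overlapped in their ranges (log2 fold change 0.12, 95% interval -0.32 to 0.55, limma adjusted p = 0.945). The ratio of Mfge8 to Gas6 was 3.73 and 3.92 in A1 and A2, 13.5 in A8, and 5.66 to 9.52 in cKO, so A8 was the highest of the 6. Mfge8 lies at chr7:78783516-78798808, minus strand (ENSMUSG00000030605).

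Pros1, which encodes protein S, was the least abundant ligand. It was 11.9, 15.5 and 8.60 FPKM in A1, A2 and A8 and 10.9, 12.98 and 9.15 in A4, A9 and A10. The ranges overlapped, with a log2 fold change of -0.09 (95% interval -0.64 to 0.46, limma adjusted p = 0.970). Of the summed Gas6 and Pros1, Gas6 made up 71.0% to 82.7% in Ctrl and 70.3% to 81.1% in cKO, so the mix of the TAM ligands overlapped. Pros1 lies at chr16:62674670-62749709, plus strand (ENSMUSG00000022912).

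The Ctrl units spread more than the cKO units in 9 of the 10 genes, as in 66.9% of all genes tested. A8 was the highest or lowest of all 6 units in 5 of the 10: highest for Mertk and Itgav, lowest for Axl, Gas6 and Pros1. A1 was at an extreme in 5 as well, A2 in 4, A4 in 1 and A10 in 1. A9, a cKO unit, was at an extreme in 4, as the highest for Axl, Megf10, Mfge8 and Itgb5. Values in S1 and S2 agreed closely, the largest ratio between them being 1.14 for Tyro3, so the spread lay between A numbers. Microglia, which also express Mertk and Axl, had low markers here, summing to 4.20 to 6.35 FPKM in Ctrl and 7.09 to 19.7 in cKO. These sums did not overlap. Of the 10 microglial markers 2 were tested. P2ry12 averaged 2.44 FPKM in Ctrl and 6.96 in cKO without overlap, and Ctss 1.16 and 1.70 with overlap. P2ry12 was the only marker of the 10 whose unit ranges did not overlap. The microglial markers that were not tested averaged below 1 FPKM in both groups. The sum of perivascular macrophage markers did not exceed 0.870 FPKM. The part of these cells in the receptor values was not tested.

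**Figure D5:**
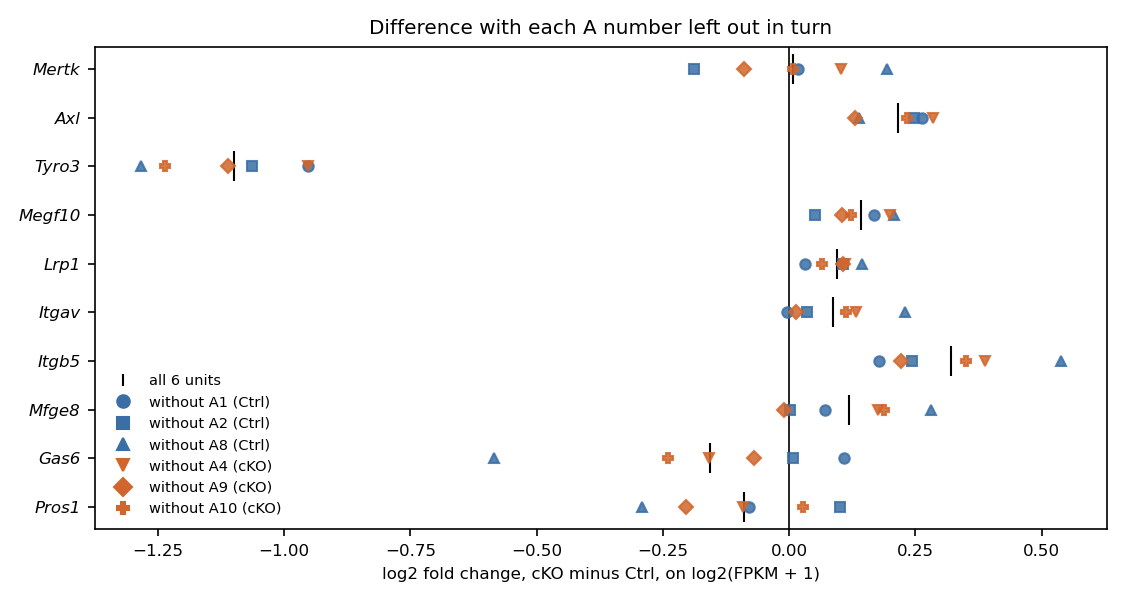
Difference cKO minus Ctrl on log2(FPKM + 1) (x axis) for each gene with all 6 units (vertical tick) and with each unit left out in turn (symbols by unit). Gas6 moves most, from -0.58 without A8 to 0.11 without A1, and Tyro3 stays between -1.28 and -0.95.

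Genes around these receptors were taken from 6 lists of 103 genes, of which 73 were tested. None passed a limma adjusted p of 0.05, and 4 had an unadjusted p under 0.05 (5.48%, against 7.69% of all genes). The units of 6 genes did not overlap: 4 were lower (Scarb2, Adgrb1, Edil3 and Atp11a) and 2 higher (Gulp1 and Fyn). These were 8.22% of the genes tested in the lists, below the share over all genes, of which 7.22% did not overlap with cKO lower and 5.76% with cKO higher. In these lists 30 genes were higher and 43 lower in cKO, with a median log2 fold change of -0.03.

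Of 27 other engulfment receptors, 10 were tested and 0 passed, with 2 higher and 8 lower. Scarb2, a lysosomal membrane receptor, averaged 62.0 ± 2.34 FPKM in Ctrl and 53.5 ± 4.22 in cKO (limma adjusted p = 0.730), and Adgrb1, a receptor for phosphatidylserine, 30.0 ± 0.830 and 26.9 ± 2.26 (limma adjusted p = 0.849). Both had units that did not overlap, while Adgrb3 was at 9.73 and 11.2 FPKM. Of 8 integrin partners, 4 were tested and 0 passed: Itga6 averaged 20.8 and 25.5 FPKM, Cd47, a signal that limits engulfment, 39.0 and 35.1, and Itgb8 60.2 and 64.7.

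Of 20 other bridging ligands and opsonins, 15 were tested and 0 passed, with 8 higher and 7 lower. Edil3, a secreted relative of Mfge8 with an integrin motif, was 21.8, 20.7 and 8.89 FPKM in A1, A2 and A8 and 2.29, 3.90 and 8.64 in A4, A9 and A10. The difference on the log2 scale was -1.66 (SE 0.47, limma adjusted p = 0.442). Edil3 had units that did not overlap, and oligodendrocytes are known to express it. C4b, a complement opsonin, averaged 13.9 and 21.3 FPKM, and Apoe, the lipid carrier, 1658 and 1972. Of 9 genes for ligand maturation and receptor shedding, 8 were tested and 0 passed. Vkorc1 averaged 8.18 and 9.93 FPKM and Vkorc1l1 6.07 and 7.37, both genes of the vitamin K cycle that activates Gas6 and protein S. Adam10, a sheddase, averaged 25.3 and 21.9.

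Of 25 genes of engulfment signalling, 23 were tested and 0 passed, with 6 higher and 17 lower, where 49.2% of all genes tested were higher. Gulp1, an adaptor of engulfment receptors including Lrp1, was 7.14, 6.28 and 8.09 FPKM in A1, A2 and A8 and 10.9, 9.79 and 10.7 in A4, A9 and A10. With a log2 difference of 0.49 and an SE of 0.15, it had units that did not overlap but a limma adjusted p of 0.456. Fyn also did not overlap, at 19.0 ± 0.729 and 21.4 ± 2.22 FPKM, and was named after its values were seen. Rhog, a small GTPase of engulfment, averaged 30.4 ± 11.6 and 14.9 ± 6.61 FPKM (limma adjusted p = 0.618), and Grb2 14.7 and 10.1. Of 14 genes of phosphatidylserine exposure and protective signals, 13 were tested and 0 passed. Atp11a, a lipid flippase, averaged 17.8 ± 3.88 and 13.2 ± 0.420 FPKM with units that did not overlap (limma adjusted p = 0.676), and its relative Atp8a1 averaged 21.6 and 15.6.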

How the data were processed

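Messenger RNA of sorted hippocampal astrocytes was measured in 12 libraries made with the SMART-Seq V4 kit and read as paired ends on an Illumina HiSeq instrument, per the labels. The authors deposited FPKM values, and the submitters' processing notes name STAR, featureCounts, DESeq2, FastQC and the mouse build mm10 or GRCm38, with no versions. Of 52000 genes matched by identifier to GENCODE M21 in GRCm38, 2.87% had the same start and end, so gene coordinates are those of the deposited table, whose build was not settled. Symbols were missing for 310 genes, and 147 symbols on several lines were summed.

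The S1 and S2 values of log2(FPKM + 1) were averaged per A number. Genes with a mean of at least 1 FPKM over the libraries were tested in limma 3.58.1 (R 4.3.3; lmFit, eBayes with trend), adjusted by Benjamini-Hochberg over 17540 genes. The fold change on this scale understates that of low genes. For 82.8% to 86.3% of values above 0, whole reads were recovered within a tolerance of 0.02, which gave depth and a limma voom alternative. Scripts were tested on simulated data. The S numbers recur across A numbers. S2 minus S1 differences correlated between A numbers at 0.133 to 0.190, above 0 for every pair, and the S2 libraries were the deeper ones. What the libraries of an S number share was not tested. The named genes were the 10, Tnfrsf1b, Gfap, the 3 genes with the smallest unadjusted p in each of 6 lists, and markers of cells whose level moved with one of the 10, of which some are not reported here. The 10 genes and all lists were chosen with earlier results of these data known. Alternatives changed the pseudocount, the filter, the scaling, the libraries and units used, and the model. Sequences came from RefSeq (GRCm38.p6) and GENCODE M21. Analyses used Python 3.11.15.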

Additional observations from a re-analysis of the deposited data

How the results depend on the processing

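Over 18 alternatives, 5 of the 10 genes kept 1 sign of log2 fold change, and 11 of 180 values had the other sign. Mertk was -0.0680 with each library rescaled to a sum of 1000000, -0.0019 with S1 libraries alone and -0.0023 in limma voom on recovered reads. Leaving out 1 unit at a time, the log2 fold change ran from -0.19 to 0.19 for Mertk, -0.58 to 0.11 for Gas6, -0.29 to 0.10 for Pros1, -0.0099 to 0.28 for Mfge8 and -0.0044 to 0.23 for Itgav. The count of genes past a limma adjusted p of 0.05 was 0, or 0 to 1 with 1 unit left out (1 without A1). It was 112 with all 12 libraries and the A number as a random effect, and 80 with the replicate block added, the S number as a term in the same model. Of the 10 genes, 1 passed with the random effect (Tyro3, limma adjusted p 0.0373) and 0 with the replicate block. Both models treat S1 and S2 as separate libraries of a unit, which correlated at 0.915 or 0.924 within it. The cause of the differing counts was not tested. Genes of the 6 lists passed in 0 alternatives. With 3 units per genotype, the precision is that of 3 units: the 9 intervals that cross 0 do not show that the genes were equal.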
